A study of Mus musculus with 3 samples.

Results

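The 4 Hox clusters of the mouse were compared for peaks of 5-hydroxymethylcytosine (5hmC), the oxidised form of 5-methylcytosine that TET enzymes make. The members were 38 protein-coding genes whose symbol is Hoxa, Hoxb, Hoxc or Hoxd followed by a number, of 21779 protein-coding genes in the gene table: 10 in Hoxa, 10 in Hoxb, 9 in Hoxc and 9 in Hoxd. The rule goes by gene symbol and uses no measured value. A peak belonged to a gene when its midpoint lay in the gene's span or within 5 kb of it, and a peak near several genes counted for each of them but once for its cluster.

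The series holds 3 mouse bone marrow samples, of which 2 are acute myeloid leukaemia (AML) cells called NIDF-AML and 1 is normal BM. Per the labels, the leukaemia was induced by FLT3-ITD (an activated receptor kinase), DNMT3A/R882H (a mutant DNA methyltransferase), NPMc (cytoplasmic nucleophosmin) and IDH2/R140Q together. Mutant IDH2 makes a metabolite that inhibits TET enzymes. The normal BM sample is labelled with no allele or agent, and the labels give no strain, age or method of delivering the alleles. The 2 samples labelled leukaemia each have a peak list, and no list filed under the normal BM sample was analysed here.

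In both file headers the treatment is index 4, set against index 5 for replicate 1 and index 6 for replicate 2. All 223267 lines were the same in both, so they were counted as 1 list of 208468 distinct peaks. The labels do not tie index 4 to a sample, so it may be leukaemia or normal BM. No comparison of leukaemia with normal marrow was therefore made, no value has a replicate, and every peak is a peak of the index 4 library. The list holds positions and no heights, read depth is unknown, and a gene without a peak is a gene for which none was listed. Intervals are at 95% and reflect counting error alone, as if peaks fell independently. Markers of marrow had a peak within 5 kb at 10 of 10 genes, and markers of other tissues at 4 of 10, where 73.1% of all protein-coding genes had one. With 10 genes per list, the marrow count is not far from that share.

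Hox genes encode homeodomain transcription factors that set position along the body axis. Within a cluster the genes lie in the order in which they are used from head to tail, from the anterior genes (paralogue groups 1 to 3) over the central genes (4 to 8) to the posterior genes (9 to 13). Genes of the same group in different clusters are paralogues. In blood, Hoxb4 and genes of the Hoxa cluster are active in stem and progenitor cells, and Hoxa9 with its cofactor Meis1 drives many acute leukaemias. The series title names activation of Hoxa9 and Meis1.

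The clusters also encode microRNAs, which are shown because members of the same seed family lay in clusters with and without peaks. The seed (bases 2 to 8) is in capitals, and the sequences are from RefSeq (GRCm38.p6). The submitters' processing notes name mm10, which has the same chromosome coordinates.
miR-10a-5p, Hoxb cluster: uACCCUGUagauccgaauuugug
miR-10b-5p, Hoxd cluster: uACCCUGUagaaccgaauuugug
miR-196b-5p, Hoxa cluster: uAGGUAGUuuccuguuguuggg
miR-196a-5p, Hoxb and Hoxc clusters: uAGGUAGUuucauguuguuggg
miR-615-3p, Hoxc cluster: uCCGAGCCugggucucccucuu

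Mir10a and Mir10b share the seed ACCCUGU, and their 5p products differ by U12A (miR-10a first, positions counted from the 5′ end). The Mir10a gene, between Hoxb5 and Hoxb4 (chr11:96317165-96317274), had 6 peaks within 5 kb, the nearest 0.309 kb away. Mir10b, within the span of Hoxd4 as the table gives it (chr2:74726070-74726137), had 0, and its nearest peak lay 70.5 kb away. The genes of the AGGUAGU seed, whose 5p products differ by A12C (miR-196a first), had 0 peaks within 5 kb at all 3 loci. The nearest peak lay 10.7 kb from Mir196b (Hoxa), 43.7 kb from Mir196a-1 (Hoxb) and 38.8 kb from Mir196a-2 (Hoxc). Mir615 in Hoxc5 had 1 peak, 2.69 kb away. The same seed family thus lay among peaks in Hoxb and far from any in Hoxd.

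Promoter sequences were available in the table for 22 of the 38 members. The 250 bases before the start of 4 genes are given here, for Hoxa6 and Hoxa9, which have and lack a peak within 5 kb of the start, and for the group 4 paralogues of Hoxb and Hoxd. They run 5′ to 3′ on the gene's strand, from RefSeq GRCm38.p6, with CG dinucleotides, the sites of most cytosine methylation, in capitals.
Hoxa6, chr6:52208673-52208922, minus strand: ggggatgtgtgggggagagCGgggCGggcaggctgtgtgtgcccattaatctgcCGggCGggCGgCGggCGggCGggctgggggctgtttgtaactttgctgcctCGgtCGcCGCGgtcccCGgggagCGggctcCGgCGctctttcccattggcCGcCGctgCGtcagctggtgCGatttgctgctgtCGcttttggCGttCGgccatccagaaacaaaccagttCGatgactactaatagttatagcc
Hoxa9, chr6:52227371-52227620, minus strand: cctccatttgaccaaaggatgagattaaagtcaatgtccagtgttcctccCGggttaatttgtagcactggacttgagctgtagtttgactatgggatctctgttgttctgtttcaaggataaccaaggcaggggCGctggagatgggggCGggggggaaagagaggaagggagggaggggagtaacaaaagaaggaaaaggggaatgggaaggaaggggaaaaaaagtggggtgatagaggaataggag
Hoxb4, chr11:96318017-96318266, plus strand: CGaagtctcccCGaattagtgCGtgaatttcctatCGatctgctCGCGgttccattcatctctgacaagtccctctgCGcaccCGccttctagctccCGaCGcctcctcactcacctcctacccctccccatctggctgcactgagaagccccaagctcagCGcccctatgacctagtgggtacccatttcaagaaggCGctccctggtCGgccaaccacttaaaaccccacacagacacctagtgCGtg
Hoxd4, chr2:74721728-74721977, plus strand: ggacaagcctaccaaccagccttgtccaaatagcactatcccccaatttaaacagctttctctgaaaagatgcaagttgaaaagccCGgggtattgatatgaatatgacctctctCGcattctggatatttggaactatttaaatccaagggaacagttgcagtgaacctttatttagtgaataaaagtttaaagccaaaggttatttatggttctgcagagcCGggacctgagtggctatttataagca

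The 250 bases held 24 CG dinucleotides at Hoxa6, 3 at Hoxa9, 14 at Hoxb4 and 3 at Hoxd4. A peak midpoint lay at 0.256 kb from the start of Hoxa6, inside the gene, and at -0.467 kb from the start of Hoxb4, before it. From the start of Hoxa9 the nearest midpoint was 8.02 kb away, and from that of Hoxd4 66.4 kb. These 4 genes were picked after their values were seen, and the promoters with and without a peak are compared as sets further on.

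Peaks lay at the anterior and central genes of Hoxa and at Hoxb1 to Hoxb5, hardly in Hoxc and not at all in Hoxd. Over all members, 14 of 38 genes (36.8%, exact binomial interval 21.8 to 54.0%) had a peak within 5 kb, where 73.1% of all protein-coding genes did. Among the 13941 protein-coding genes whose span lies within that of the members (1.78 to 44.0 kb), the share was 76.3%, and among autosomal ones 76.1%. A peak in the gene span itself was listed for 9 of 38 members (23.7%, interval 11.4 to 40.2%), against 66.6% of all protein-coding genes. The median Hox gene had 0 peaks within 5 kb and the median protein-coding gene 4. Neighbouring Hox genes share peaks, so the members are not independent and the intervals are too narrow.

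By cluster, 7 of 10 Hoxa genes, 5 of 10 Hoxb genes, 2 of 9 Hoxc genes and 0 of 9 Hoxd genes had a peak within 5 kb. They rested on 33 distinct peaks: 15 at Hoxa, 17 at Hoxb, 1 at Hoxc and 0 at Hoxd. Counted with repeated lines, Hoxa had 37, Hoxb 22 and Hoxc 2. Of the 33, 26 lay in the span of a Hox gene and 19 were near more than 1 of them. All but 1 of the peaks were therefore in 2 clusters, on chromosomes 6 and 11.

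**Figure D1:**
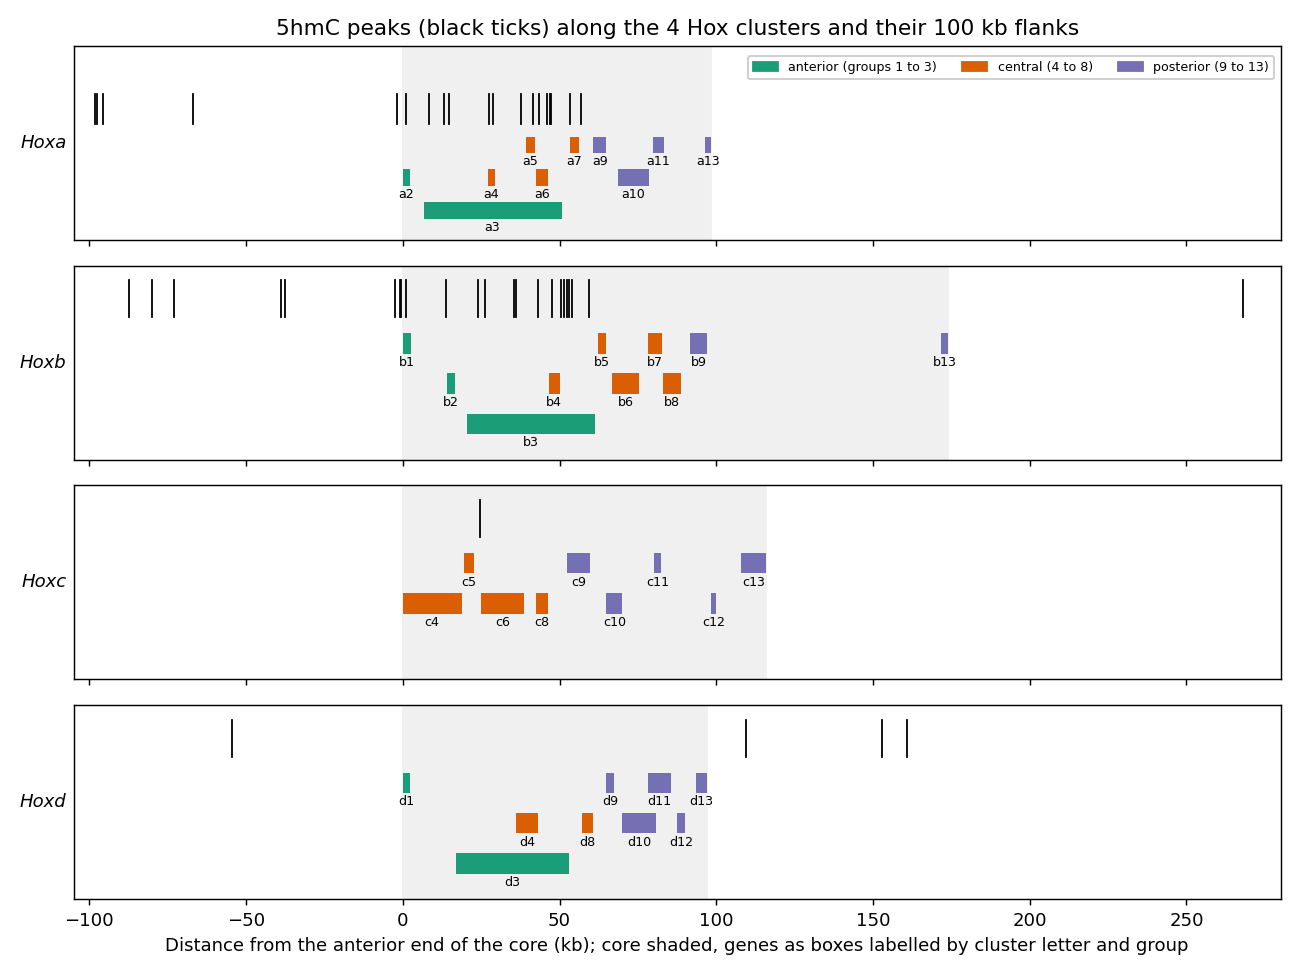
Positions of 5hmC peaks (black ticks) along each Hox cluster, in kb from the anterior end of the core (shaded, first to last Hox gene), with genes as boxes coloured by paralogue class and 100 kb on each side. The 15 peaks near Hoxa genes run from Hoxa2 past Hoxa7, and the 17 near Hoxb genes from Hoxb1 to the far end of Hoxb3. Hoxc has 1 and Hoxd has 0 near its genes.

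In Hoxa the peaks formed a stretch of 58.9 kb (chr6:52160472-52219392) that reached from Hoxa2 past Hoxa7. Hoxa3, a regulator of thymus and pharyngeal development, had 12 peaks (exact Poisson interval 6.20 to 21.0), 11 of them in its span of 44.0 kb (chr6:52169059-52213067). That span, as the table gives it, also holds Hoxa4, Hoxa5 and Hoxa6, so those genes share its peaks. Hoxa6 had 6 peaks (2.202 to 13.1), of which 2 were in its span, and Hoxa5, needed for lung development, had 5 (1.62 to 11.7), of which 1 was. Hoxa2, a patterning gene of the hindbrain and second branchial arch, and Hoxa4 and Hoxa7 had 2 peaks each (0.242 to 7.22). Per kb of span and 5 kb on each side, the levels were 0.434 peaks at Hoxa6, 0.390 at Hoxa5 and 0.222 at Hoxa3, where the median protein-coding gene had 0.106. Hoxa2, Hoxa4 and Hoxa7 stood between 0.154 and 0.166 per kb.

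The Hoxa peaks stopped between Hoxa7 and Hoxa9. The last of them (chr6:52219312-52219392) lay 3.75 kb from Hoxa9 and was the only peak of any posterior Hox gene. Hoxa10 was 11.8 kb from the nearest peak, Hoxa11, a limb and uterus gene, 22.8 kb, and Hoxa13, a gene of the distal limb and hindgut, 39.5 kb. Beyond that last peak no other was listed for 199 kb, a stretch that held Hoxa9 to Hoxa13 and the homeobox gene Evx1. Stretches between neighbouring peaks at least that long numbered 1920 of 207169 on the autosomes and made up 45.2% of the sequence between peaks.

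In Hoxb a like stretch of 61.9 kb (chr11:96308944-96370856) ran from Hoxb1 to the far end of Hoxb3. Hoxb3 had 12 peaks (6.20 to 21.0), all in its span of 40.8 kb (chr11:96307101-96347930), which also holds Hoxb4. Hoxb4, known for expanding haematopoietic stem cells, had 7 peaks (2.81 to 14.4), or 0.523 per kb of span and 5 kb on each side, the highest level of the 38 members. Of these, 1 lay in its span and 5 within 5 kb before its start, which is also where Mir10a lies. Hoxb1, a hindbrain gene, had 4 peaks (1.09 to 10.2), or 0.320 per kb, of which 1 was in its span. Hoxb2 and Hoxb5 had 1 each (0.0253 to 5.57), at 0.508 kb and 2.87 kb from the span.

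Hoxb6 to Hoxb13 had no listed peak within 5 kb. The nearest peak lay 7.42 kb from Hoxb6, 18.8 kb from Hoxb7, 23.7 kb from Hoxb8, 32.4 kb from Hoxb9 and 94.3 kb from Hoxb13. The peak-free stretch was 209 kb long and began within the span of Hoxb3, leaving Hoxb5 to Hoxb13 without a peak in their spans. In Hoxa the central genes up to Hoxa7 had peaks in their spans, while in Hoxb this held for Hoxb4 and no later gene. The central spans held 6 peaks in 11.6 kb in Hoxa and 1 in 25.2 kb in Hoxb, a density ratio of 13.02 (exact interval for a ratio of Poisson rates 1.58 to 599). With 5 kb on each side the ratio was 1.61 (0.573 to 4.70), so this difference rested on peaks in the spans. Anterior spans had like densities, with 12 peaks in Hoxa and 13 in Hoxb and a ratio of 0.909 (0.379 to 2.16). Of these, 11 lay in the span of Hoxa3 and 12 in that of Hoxb3, which also hold central genes. The central and anterior ratios therefore share peaks and are not independent.

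In Hoxc the 1 peak (chr15:103012168-103012264) lay between Hoxc6, at 0.334 kb, and Hoxc5, at 1.79 kb. Hoxc4 was just outside the 5 kb limit, at 5.88 kb. Hoxc8 was 17.9 kb away, and Hoxc9 to Hoxc13, the last of which is needed for hair, lay 27.8 to 83.4 kb away. The peak-free stretch on that side measured 235 kb. In Hoxd no gene had a peak within 10 kb. The 9 genes lay 12.6 kb (Hoxd13, a digit gene) to 66.4 kb (Hoxd4) from the nearest peak, and the whole cluster fell in a peak-free stretch of 164 kb.

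**Figure D2:**
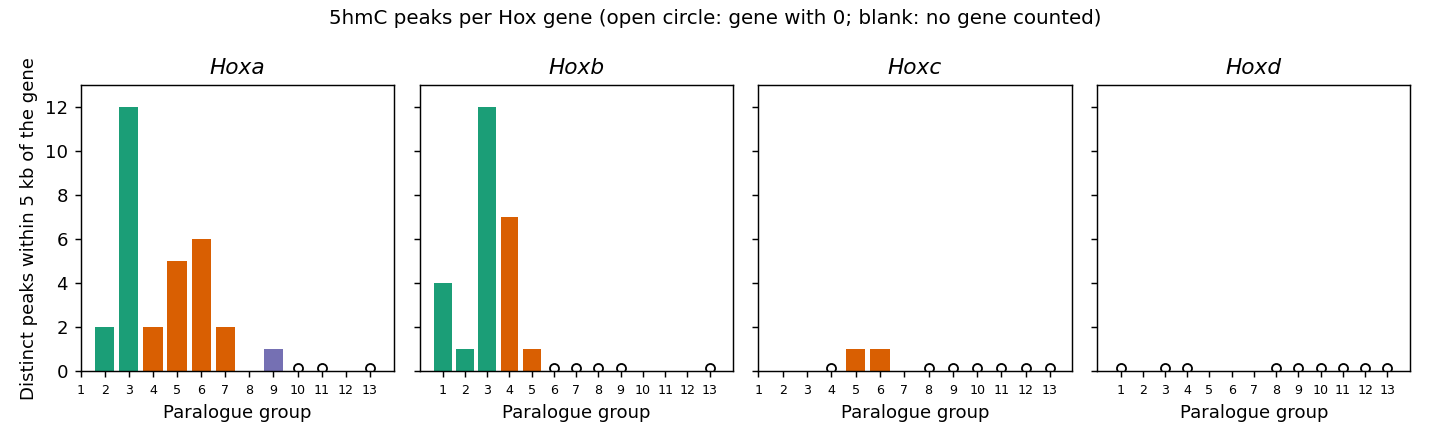
Distinct 5hmC peaks within 5 kb of each Hox gene (y axis) by paralogue group (x axis) and cluster, coloured green for anterior, orange for central and purple for posterior groups; an open circle is a gene with 0 peaks. Bars reach 12 at Hoxa3 and Hoxb3, and Hoxa9 is the only posterior gene with a bar, of 1.

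Set side by side, paralogues differed by cluster. In group 3, Hoxa3 and Hoxb3 had 12 peaks each and Hoxd3 had 0. In group 4, Hoxb4 had 7 and Hoxa4 2, and Hoxc4 and Hoxd4 had 0. In group 5, all 3 genes had a peak: Hoxa5 had 5, Hoxb5 had 1 and Hoxc5 had 1. In group 6, Hoxa6 had 6, Hoxc6 1 and Hoxb6 0. In group 8 none of the 3 genes, and in groups 10 to 13 none of the 12 genes, had a peak within 5 kb. Between Hoxa and Hoxb, the order of group 4 was thus opposite to that of groups 5 and 6. The intervals of Hoxa4 (0.242 to 7.22) and Hoxb4 (2.81 to 14.4) overlap. Those of Hoxa5 (1.62 to 11.7) and Hoxb5 (0.0253 to 5.57) overlap too, as do those of Hoxa6 (2.202 to 13.1) and Hoxb6 (0 to 3.69).

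By paralogue class, 5 of 7 anterior genes (71.4%, exact binomial interval 29.04 to 96.3%), 8 of 15 central genes (53.3%, 26.6 to 78.7%) and 1 of 16 posterior genes (6.25%, 0.158 to 30.2%) had a peak within 5 kb. The anterior share was near that of all protein-coding genes (73.1%), and the posterior interval lay wholly below it. In merged spans, anterior genes held 25 peaks in 131 kb, or 1.91 per 10 kb (exact Poisson interval 1.24 to 2.83). Central genes held 7 in 86.9 kb, or 0.805 per 10 kb (0.324 to 1.66). Posterior genes held 0 in 75.5 kb, which allows up to 0.398 per 10 kb, taking 3 counts as the limit that a count of 0 allows. Against that limit the measured anterior density was at least 4.81-fold higher, with no allowance for the error of the anterior count. The exact Poisson upper bound for the posterior spans was 0.489 per 10 kb, below the lower bound of 1.24 for the anterior spans.

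Within 5 kb of the genes, the anterior to posterior density ratio was 29.9 (exact interval 4.98 to 1217), from 31 and 1 peaks. The central to posterior ratio was 19.6 (3.12 to 816), from 19 and 1 peaks. The anterior to central ratio was 1.52 (0.833 to 2.85), an interval that holds 1. Anterior and central spans overlap at Hoxa3 and Hoxb3, so these classes share peaks. The 1 posterior peak, near Hoxa9, is also within 5 kb of Hoxa7 and so is among the 19 central peaks. The central to posterior interval treats these counts as separate, which they are not. The classes also differ in cluster: Hoxc has no anterior gene, and the anterior and central genes of Hoxd, 4 in all, had no peak within 5 kb either. The posterior share therefore cannot be told apart from cluster in Hoxd, where no class had a peak.

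**Figure D3:**
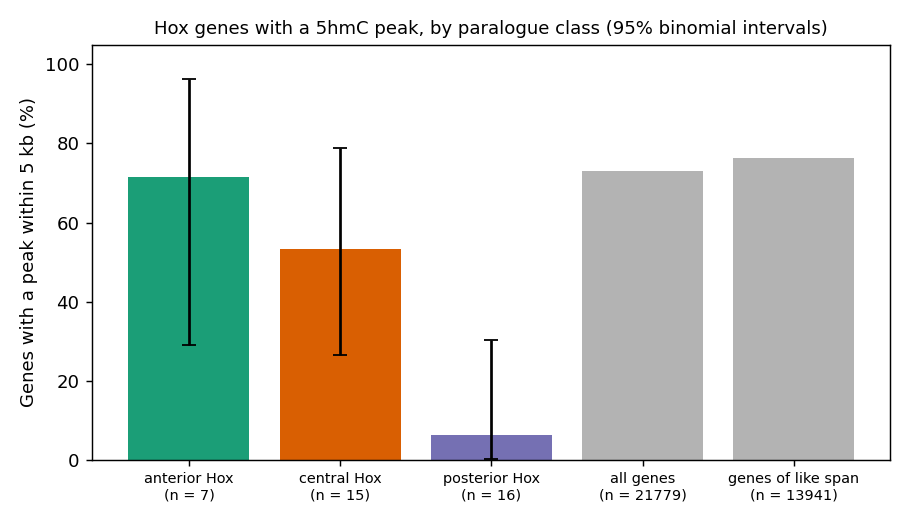
Percent of genes with a 5hmC peak within 5 kb, for anterior, central and posterior Hox genes (bars with 95% exact binomial intervals) and, in grey, for all protein-coding genes and for those in the span range of the Hox genes. Anterior genes stand at 71.4%, near the 73.1% of all genes, and posterior genes at 6.25%.

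From the first to the last Hox gene, the Hoxa core of 98.5 kb held 14 peaks, or 14.2 per 100 kb (exact Poisson interval 7.77 to 23.9). The Hoxb core of 174 kb also held 14, or 8.05 per 100 kb (4.40 to 13.5). The Hoxc core of 116 kb held 1, or 0.864 per 100 kb (0.0219 to 4.81), and the Hoxd core of 96.9 kb held 0, which allows up to 3.10 per 100 kb at 3 counts. The Hoxa to Hoxc ratio was 16.5 (2.504 to 696) and the Hoxb to Hoxc ratio 9.31 (1.42 to 394). Against the limit for Hoxd, the measured density was at least 4.59-fold higher in Hoxa and at least 2.60-fold higher in Hoxb, with no allowance for the error of their own counts. The exact Poisson upper bound for Hoxd was 3.81 per 100 kb, below the lower bounds of Hoxa (7.77) and Hoxb (4.40). Hoxa over Hoxb was 1.77 (0.781 to 3.998), an interval that holds 1. Autosomal windows of 100 kb held a median of 1 peak and a mean of 8.63, and 39.7% held none. Among the 670 windows with at least 5 protein-coding genes, the median was 25 and 13.7% held none. All 4 Hox cores hold at least 5 genes per 100 kb, and all 4 were below that median of 25.

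The 100 kb flanks differed from the cores in Hoxa. Hoxa flanks held 5 peaks, all on the anterior side, or 2.5 per 100 kb (0.812 to 5.83), and the core was 5.69 times denser (1.94 to 20.2). Hoxb flanks held 9 peaks, 8 of them on the anterior side, or 4.5 per 100 kb (2.06 to 8.54), with a core to flank ratio of 1.79 (0.721 to 4.68). The Hoxc flanks held 0 (4.0 per 100 kb with flanks of 200 kb), and the Hoxd flanks held 4, 1 on the anterior and 3 on the posterior side, or 2.0 per 100 kb (0.545 to 5.12). Over 2 Mb centred on each cluster, the density was 15.35 per 100 kb at Hoxa, 20.45 at Hoxb, 11.25 at Hoxc and 4.75 at Hoxd. Hoxd thus had the fewest peaks of the 4 in its core and over 2 Mb, while in the 100 kb flanks Hoxc had fewer. Over 2 Mb, Hoxc was above the autosomal mean of 8.63.

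**Figure D4:**
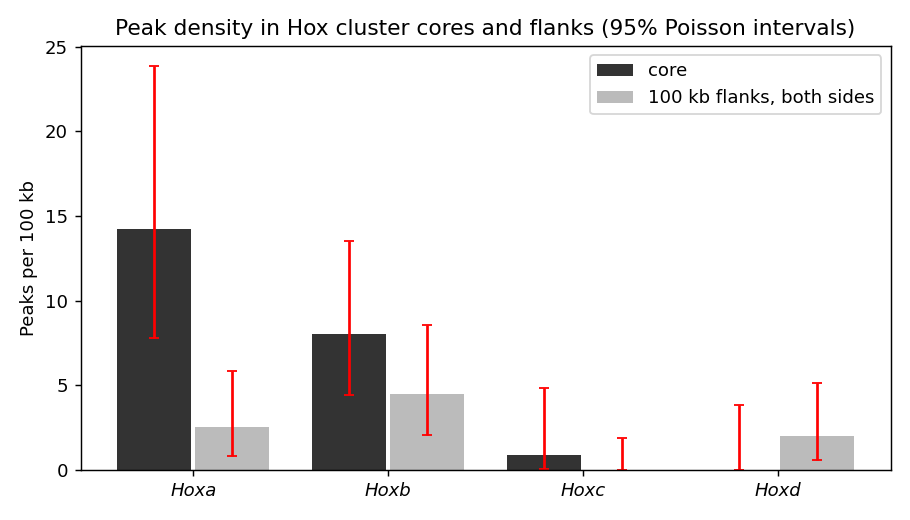
Peaks per 100 kb in each Hox cluster core (dark bars) and in its 100 kb flanks on both sides (light bars), with 95% exact Poisson intervals. The Hoxa core stands at 14.2 and its flanks at 2.5, and the Hoxd core at 0.

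Non-coding genes overlap or adjoin the coding genes and share their peaks. In Hoxa the antisense RNA gene Hoxaas3, along Hoxa5 and Hoxa6, had 5 peaks in its span of 12.5 kb, and Hotairm1, a myeloid RNA gene at the anterior end, had 1. Hoxa11os and Hottip, at the posterior end, had 0 within 5 kb. In Hoxb, Hoxb3os had 1 peak in its span and 3 within 5 kb. Hotair in Hoxc and Haglr in Hoxd had 0 within 5 kb. Among protein-coding neighbours, Skap1, a T cell adaptor gene on the anterior side of Hoxb, had 18 peaks within 5 kb of its 295 kb span, most of it beyond the flank, and Calcoco2 on the posterior side had 1. Evx2, beside Hoxd13, had 1, and Evx1, Ttll6, Lnpk and Mtx2 had 0. The Hoxc flanks held no protein-coding gene of the table.

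No peak overlapped any of the 24 promoter windows (250 bases before to 50 after a start) of the 22 Hox genes with a sequence, where 5.71% of the 32851 windows of all genes held one. At so low a share, 0 among 24 windows does not show a difference. A peak within 5 kb of the start was listed for 7 of 24 Hox windows (29.2%), against 57.6% of all windows. The Hox windows covered all 9 Hoxd genes, but in Hoxb only Hoxb1, Hoxb4 and Hoxb8, and in Hoxc only Hoxc4. Their shares and medians therefore weigh the peak-free Hoxd cluster heavily and do not stand for all Hox promoters. Hox promoters were CG-rich, with a median of 14.5 CG dinucleotides per window (4 to 45), against 7 over all windows. The 7 windows with a peak had a median of 14 and the 17 without had 15. Among all windows with 20 to 29 CG dinucleotides, 75.9% had a peak within 5 kb of the start, against 3 of the 9 such Hox windows. Those 3 were at Hoxa3, Hoxa5 and Hoxa6. The others were a Hoxa10 window and windows of Hoxd1, Hoxd3, Hoxd9, Hoxd10 and Hoxd11, so the gap lay mostly in Hoxd, which had no peak near any gene. The Hox promoters with and without a peak thus overlapped in CG content. The letters TGATNNAT, a site of Hox-Pbx pairs searched on both strands, stood in 4 of 24 Hox windows (16.7%) and 8.85% of all. TGACAG, a site of Meis proteins, stood in 2 (8.33%) and 19.2%.

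Other genes of the pathway had peaks more often than the Hox genes did. Of the 11 TALE homeodomain cofactor genes, 10 had a peak within 5 kb, with a median of 6 per gene and 0.0889 per kb of span and 5 kb on each side. Over all protein-coding genes the share was 73.1%, with a median of 4 and 0.106 per kb. By density the cofactor genes were thus not richer in peaks than the median gene. Pknox1 had 22, Pbx4 16 and Pbx2 15, while Meis2 had 0. Meis1, which the title names, had 6 peaks in its span of 139 kb. Of 27 known upstream regulators of Hox genes, 25 had a peak, with a median of 8 and 0.213 per kb. Among them Aff1, a partner of MLL in leukaemia fusions, had 122 peaks, the polycomb cofactor gene Jarid2 59, the retinoic acid receptor gene Rara 49, and Kmt2a, which encodes MLL, and Mllt1 31 each. Cdx2 and Cdx4, caudal-type factors, had 0, while the related Cdx1 had 8.

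Some homeobox genes near in kind to Hox genes were also poor in peaks. Of the 5 ParaHox and Evx genes listed apart, Evx2 had 1 peak and Gsx1, Gsx2, Pdx1 and Evx1 had 0. The Cdx genes, ParaHox genes too, were counted among the upstream regulators, and of these Cdx1 had 8 peaks within 5 kb. All 7 other homeobox genes of blood cells had a peak, with a median of 23 and 0.445 per kb. Cux1 had 133, Zeb2 65, the B cell factor gene Pou2f2 46 and the chromatin organiser gene Satb1 23. Beside these lists, 73.1% of all protein-coding genes had a peak, with a median of 4 and 0.106 per kb.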

How the data were processed

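Mouse bone marrow 5hmC libraries were made, per the labels' protocols, by tagging 5hmC with an azide-bearing glucose, coupling it to biotin, capturing it on avidin and sequencing paired ends. Per the file headers, the authors called peaks with PICS (99 bp reads, 200 bp fragments, 250 bp windows moved by 20 bp, minimum forward and reverse read counts of 3 per window and 10 per region). The deposited lists give the start and end of each peak in bp and no score, so no value of another unit was used. The build is mm10 per the submitters' processing notes, and the aligner and any cutoff are not given in the sources used here.

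Repeated lines were counted once. Starts count from 1. Peak positions are multiples of 4 bp at Hoxa and 8 bp at the other clusters, so widths and short distances are coarse. Genes came from a RefSeq table (GRCm38.p6) with 1 span per gene. Models starting before 3 Mb were dropped, except on Y. Counting was tested on simulated data. Python 3.11.15, pandas 2.3.3 and SciPy 1.17.1 were used. Intervals are exact Poisson, exact binomial (Clopper-Pearson) or exact conditional intervals of a rate ratio, with no test between groups. Every member is reported. In the flanks the 2 protein-coding genes with most peaks per cluster are described, and in the other lists the 4 with most peaks, every gene with none, and also Meis1 and Cdx1. An item that falls under this rule is not reported here. Members and lists were chosen with earlier results of these data known.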

Additional observations from a re-analysis of the deposited data

How the results depend on the processing

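Hoxa had at least as many genes with a peak as every other cluster, and posterior genes had at most 1, under every alternative run. By number of peaks Hoxb led Hoxa, 17 to 15, and with repeated lines kept Hoxa led, with 37 lines against 22. At gene spans both had 13. Over 22 results and 140 values under alternatives, 123 were kept and 17 moved, where a count moved past 1.5 times and a density, ratio or share moved out of the 95% interval of its reported value (72.55 to 73.73% for the share of all protein-coding genes). With a peak required in the gene span, 9 members had a peak, of which 3 in Hoxb and 0 in Hoxc, central genes with a peak numbered 5 and posterior genes 0, Hoxc peaks numbered 0, and the share of all protein-coding genes was 66.65%. Within 2.5 kb, 0 posterior genes had a peak and the share of all genes was 70.91%, and within 10 kb that share was 75.81%. With repeated lines kept, 2 lines lay near Hoxc genes, and the Hoxa core density was 35.55 per 100 kb. With groups 1 to 8 as 1 class, 13 such genes had a peak. Without Hoxa3, Hoxb3 and Hoxd3, a choice made after seeing the data, 3 anterior genes had one and the anterior to posterior ratio was 25.69. With flanks of 200 kb the Hoxc flanks held 4.0 per 100 kb. On autosomes alone 76.06% of protein-coding genes had a peak. The ratio ranged from 17.12 to 29.86 over its alternatives, and could not be computed where posterior genes had no peak (gene span and 2.5 kb). The list holds no score, so a stricter list was not run. Without replicate 1 or without replicate 2 every value was equal, since the lists are identical, which says nothing about stability. No paired analysis was possible because no list filed under the normal BM sample was used and the 2 lists are identical. The posterior value rests on 1 peak near Hoxa9, and depth is unknown.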

Other observations

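Repeated lines were common at Hox genes. Of the 33 peaks within 5 kb of a Hox gene, 20 (60.6%) were listed more than once, against 6.45% of all distinct peaks. In Hoxa this held for 14 of 15 peaks, in Hoxb for 5 of 17. The most lines for 1 peak was 4, at the peak by Hoxa6 (chr6:52208384-52208448) and at the next one (chr6:52209280-52209376). No Hox peak had more lines than annotated genes of any kind within 5 kb, and 8 of 33 had exactly as many. The median width was 57 bp at Hoxa and 81 bp at Hoxb, against 65 bp over all peaks, on the coarse positions described above.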
